A study of Mus musculus with 45 samples.

Results

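Gene expression between day 2 and day 3 of differentiation was compared in male mouse ESCs that had been maintained in 2iL. The comparison takes 3 libraries of day 3 against 3 libraries of day 2, chosen by their titles from 45 libraries, and every counted gene is a member. All cells are of the E14tg2a line, a wild-type male line of 129/Ola background and hence a single line. 2iL is serum-free N2B27 medium with the GSK3 inhibitor CHIR99021, the MEK inhibitor PD0325901 and LIF. At day 0 the cells left 2iL for 1 of 3 media, and each medium gave at most 1 library per day. In the EB course they were grown in suspension in serum without LIF, where they form embryoid bodies. In the course labelled EpiSC they were plated in N2B27 with Fgf2 and ActivinA (FA), and in the course labelled Neural in N2B27 alone (serum-free). No replicate culture is given within a course, so the 3 courses served as replicates of a day. The matching 3 and 3 libraries of cells that started in serum with LIF (SL) were used for comparison.

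ESCs held in 2iL are in a naive state, kept there by a circuit of transcription factors and by the block of Fgf/ERK signalling. When the inhibitors and LIF are taken away, the naive factors are lost first, genes of the post-implantation epiblast follow, and cells then become able to enter the germ layers. Xist is the long non-coding RNA that silences an X chromosome in female cells, and the study asked how it and its neighbours in the X inactivation centre behave in male cells during this exit.

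The 6 libraries held between 16691160 and 39253633 reads on genes, the 2 EB libraries being the deepest. The 10 most abundant genes took 8.99% to 12.5% of the reads in the EB and FA libraries and 20.6% and 22.1% in the serum-free libraries. Rn7s1 and Rn7s2, near-identical copies of the 7SL RNA, made up 7.65% and 7.17% of the serum-free reads and 2.02% to 3.43% of the others, the FA library going from 2.02% on day 2 to 3.43% on day 3. Of the streak genes T, Mixl1, Eomes and Mesp1, which would mark a mesodermal EB, only Eomes exceeded 2 CPM in the EB libraries. The neural genes Sox1, Pax6, Zfp521 and Hes5 summed to 72.7 CPM on day 2 and 352 CPM on day 3 in the serum-free libraries, and to 9.80 and 12.6 CPM in EBs. Trophoblast markers (Elf5, Cdx2, Tpbpa) summed to at most 2.16 CPM in any library. The epiblast stem cell markers Fgf5, Otx2, Dnmt3b, T and Eomes, which would mark the course labelled EpiSC, summed to 992 and 574 CPM in FA but to 2866 and 3174 CPM in EBs.

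Of 14213 genes with enough reads to be tested, 1808 (12.7%) rose and 1500 (10.6%) fell from day 2 to day 3 at an adjusted p below 0.05, 3308 (23.3%) in all. The test was edgeR's quasi-likelihood test with the course as a block, and all adjusted p-values below are Benjamini-Hochberg values over all genes tested. The median log2 fold change was 1.09 for the rises, against -0.66 for the falls and 0.02 for all genes. A log2 change of at least 1 was reached by 988 genes that rose and by 494 that fell, and of at least 3 by 40 and 30. Of the rises 1806 were upward in all 3 courses, and of the falls all 1500 were downward in all 3. A test with the course as a block favours genes whose courses agree, so this follows largely from the call. Without the block only 225 genes passed, and without the FA, serum-free or EB course 230, 630 and 5000 passed.

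For 4531 of the 14213 genes (31.9%) the day 3 values lay wholly above or wholly below the day 2 values. The libraries of day 2.5, which the test did not use, mostly lay in between. Their mean was between the day 2 and day 3 means for 1759 of the 1808 genes that rose (97.3%). The same held for 1483 of the 1500 that fell (98.9%), against 61.7% of the genes that did not pass. Genes that passed were chosen for a gap between these 2 days, so their higher share follows in large part from that choice. At day 7, 918 of the risen genes (50.8%) were above their day 3 level in all 3 courses and 146 were below it. Of the fallen genes 960 (64.0%) were lower still at day 7 in all 3 courses and 65 were higher. Among genes that did not pass, 22.4% were above and 25.1% below their day 3 level in all 3 courses. In whole cultures, a gene that falls because fewer cells express it cannot be told apart from one that falls in every cell.

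The largest rise was that of Zfp521, a zinc finger protein that drives ESCs towards neural fate. It was at 0.363, 0.475 and 0.381 CPM on day 2 in the EB, FA and serum-free courses, an order kept for all triplets of values below, and at 6.55, 6.66 and 38.0 CPM on day 3 (log2 fold change 4.89 ± 0.56 (SE), adjusted p = 0.00915). All day 3 libraries were above all day 2 libraries, and the serum-free one was highest. Afp, the alpha-fetoprotein of yolk sac endoderm, went from 0.596, 0.0594 and 0.254 to 17.2, 2.14 and 3.45 CPM (log2 fold change 4.61 ± 0.36 (SE), adjusted p = 0.00294), highest in EBs. The synaptic gene Cplx2 went from 0.233, 0.475 and 1.78 to 1.92, 14.4 and 30.8 CPM (log2 fold change 4.08 ± 0.34 (SE), adjusted p = 0.00326). The order of the courses thus differed from gene to gene among the largest rises. A common direction in all 3 courses was a condition for a place among the 10 rises or 10 falls. Cer1, a secreted antagonist of Nodal, BMP and Wnt, was below 0.5 CPM in every day 2 library and reached 1.89, 23.3 and 2.22 CPM, with its peak in FA (log2 fold change 3.81 ± 0.94 (SE), adjusted p = 0.0488). The clotting factor gene F5 reached 7.26, 22.3 and 2.59 CPM (log2 fold change 3.77 ± 0.41 (SE), adjusted p = 0.00604), and it too was highest in FA. The other 5 of the 10 largest rises were the engulfment receptor gene Megf10 (3.82), the homeobox gene Meis3 (3.63), the protease gene Tmprss2 (3.52), the hexokinase gene Hkdc1 (3.44) and the matrix gene Thsd4 (3.40), with log2 fold changes in brackets.

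**Figure D1:**
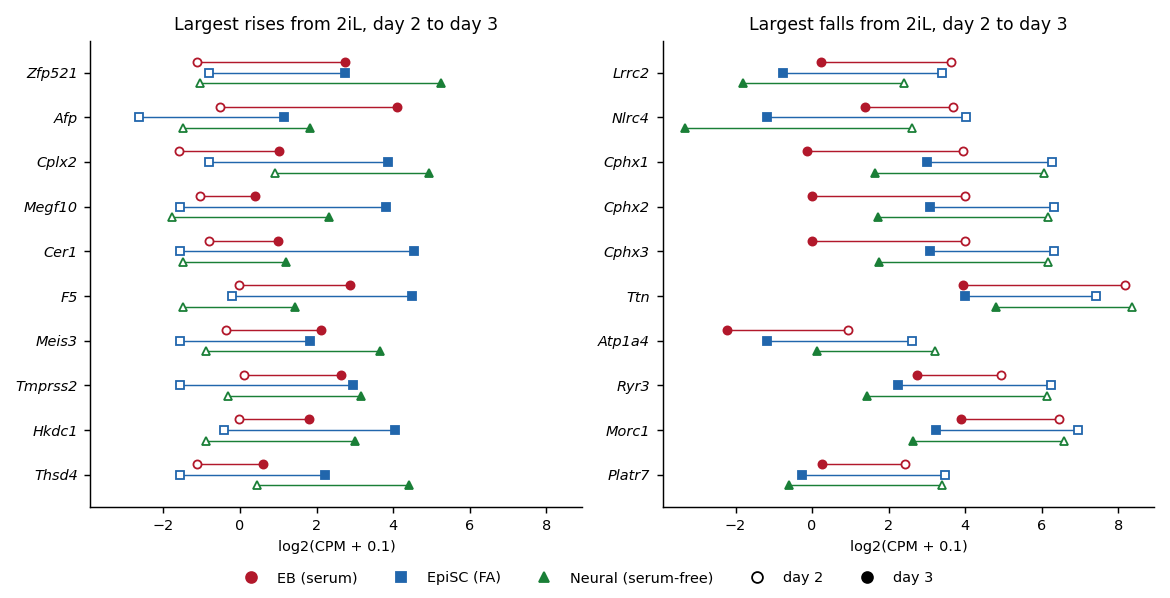
The 10 most increased and 10 most decreased genes, with the level in each of the 6 libraries as log2(CPM + 0.1). Open symbols are day 2, filled symbols day 3, and colours and shapes mark the course. The day 3 symbol lies to the right of the day 2 symbol in all 3 courses for the rises and to the left for the falls. This was a condition for a gene to be chosen.

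Among the largest falls, Ttn, which encodes the sarcomere protein titin, was at 288, 170.0 and 329 CPM on day 2 and at 15.4, 16.0 and 27.7 CPM on day 3 (log2 fold change -3.72 ± 0.18 (SE), adjusted p = 0.00285), a drop in each course. Morc1, which silences transposons in the germline, went from 87.0, 123 and 95.6 to 14.7, 9.28 and 6.11 CPM (log2 fold change -3.37 ± 0.33 (SE), adjusted p = 0.00814). Both had day 3 values wholly below those of day 2. The calcium channel gene Ryr3 went from 30.8, 76.1 and 70.3 to 6.61, 4.67 and 2.59 CPM (log2 fold change -3.56 ± 0.57 (SE), adjusted p = 0.0237). A further 3 places among the 10 belong to Cphx1, Cphx2 and Cphx3, homeobox genes whose counts agreed within 10% in every library. They may share reads, which could not be checked from gene counts, and they are reported as 1 uncertain signal, at 15.4, 76.6 and 66.8 CPM for Cphx1 on day 2 and 0.819, 7.92 and 3.02 CPM on day 3 (log2 fold change -3.91 ± 0.27 (SE), adjusted p = 0.00294). Platr7, a long non-coding RNA linked to pluripotency, fell by a log2 value of 3.32 (adjusted p = 0.00974), and Lrrc2 (-4.02), the inflammasome gene Nlrc4 (-3.98) and the sodium pump gene Atp1a4 (-3.67) completed the list.

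A few transcripts of high abundance are named here after their values were seen. The heat shock gene Hsp90aa1 went from 5522, 6389 and 5038 to 3646, 3817 and 2907 CPM (log2 fold change -0.70 ± 0.08 (SE), adjusted p = 0.00664). The zinc finger gene Rex2 was at 2458, 2288 and 2243 CPM on day 2 and 648, 534 and 412 CPM on day 3 (log2 fold change -2.14 ± 0.12 (SE), adjusted p = 0.00285), and Zfp600 and Gm13242, which have similar counts and may share its reads, changed by -2.18 and -2.08. The nucleolar gene Npm1 (-0.46) and the chaperone genes Hspa8 (-0.53) and Hspd1 (-0.60) also fell. In the other direction, the nuclear RNA Malat1 went from 2662, 1802 and 1758 to 3770.0, 2749 and 3010.0 CPM (log2 fold change 0.65 ± 0.09 (SE), adjusted p = 0.00877) and the glucose transporter gene Slc2a3 from 325, 488 and 637 to 766, 1316 and 1701 CPM (log2 fold change 1.38 ± 0.09 (SE), adjusted p = 0.00285). For each of these genes, the 2 days did not overlap. By class, 1779 of 13417 protein-coding genes rose and 1438 fell, whereas 4 of 172 lincRNA genes rose and 26 fell.

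The count of each list from here on is to be read beside the 12.7% of all tested genes that rose and the 10.6% that fell. Of 15 naive pluripotency genes tested, 1 rose and 3 fell by edgeR, while DESeq2 called 1 rise and 5 falls. Nanog was the one that rose, from 72.7, 77.0 and 37.1 to 126, 181 and 49.8 CPM (log2 fold change 0.84 ± 0.16 (SE), adjusted p = 0.0213). It was higher on day 3 in each course although the days overlapped, and its rise was larger in FA than in serum-free medium over both starting media (difference 0.91 ± 0.15 (SE), adjusted p = 0.0385), FA at day 3 being the highest library. The nuclear receptor gene Nr5a2, an activator of Pou5f1, fell from 11.5, 8.44 and 6.92 to 5.25, 2.14 and 0.925 CPM (log2 fold change -1.87 ± 0.36 (SE), adjusted p = 0.0209). Fgf4, the autocrine ligand that drives exit from the naive state, fell from 192, 82.5 and 43.7 to 124, 28.8 and 11.4 CPM (log2 fold change -1.32 ± 0.27 (SE), adjusted p = 0.0343), and Tcl1 (-1.38) fell too. Klf4, Esrrb and Tfcp2l1 did not pass, with log2 fold changes of -0.07, -0.26 and 0.44. These genes and Pou5f1 were named after their values were seen.

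Among 12 general pluripotency genes 1 rose (Lin28b, 0.58) and 4 fell. Tdgf1, the co-receptor for Nodal, went from 382, 259.8 and 73.2 to 117, 129 and 20.04 CPM (log2 fold change -1.51 ± 0.18 (SE), adjusted p = 0.00855). Its serum-free values were the lowest on both days. Dppa2, a partner of Dppa4 in priming chromatin, went from 139.6, 167 and 186 to 60.0, 77.6 and 40.2 CPM (log2 fold change -1.49 ± 0.24 (SE), adjusted p = 0.0205), with no overlap between days. Dppa4 (-0.96) and the repressor gene Zfp281 (-0.65) were the other falls. Pou5f1, at 500.3, 499 and 448 CPM on day 2 and 489, 169 and 69.0 CPM on day 3, had close values in EBs on both days and lower ones on day 3 in the other courses, and did not pass (log2 fold change -1.42 ± 0.59 (SE), adjusted p = 0.16).

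Genes of the post-implantation epiblast fell more often than they rose, with 2 of 20 tested rising and 5 falling by edgeR. At an unadjusted p below 0.05 edgeR gave 2 rises and 8 falls, and DESeq2 called 3 rises and 10 falls. Cldn6, a tight junction gene, rose from 98.6, 8.80 and 8.51 to 198, 48.8 and 34.7 CPM (log2 fold change 1.81 ± 0.30 (SE), adjusted p = 0.0221), and the Hippo pathway factor gene Tead2 (0.70) rose. Grhl2, which activates epithelial genes, fell from 134, 49.1 and 26.5 to 69.2, 7.49 and 3.39 CPM (log2 fold change -2.10 ± 0.47 (SE), adjusted p = 0.0453). The drop was smallest in EBs, and the days overlapped. Lef1, -1.52, Etv4, -0.99, and Dnmt3a, -1.24, were among the other falls. The DNA methylation list, which shares Dnmt3a, had 4 of 8 genes falling and 1 rising, against 10.6% and 12.7% of all genes. The falls came to 1 without the FA course or the block, 2 without the serum-free course and 7 without the EB course. Dnmt3l, the cofactor of the de novo methyltransferases, went from 522, 655 and 594 to 86.6, 248 and 144 CPM (log2 fold change -1.997 ± 0.24 (SE), adjusted p = 0.01), wholly below day 2. Tet1 (-1.09) and Uhrf1 (-0.52) fell and Tet3 (0.58) rose, Tet1 and Tet3 being oxidases of methylcytosine and Uhrf1 the partner of the maintenance enzyme.

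Of 15 tested genes of the primitive streak none passed in either direction by edgeR. At an unadjusted p below 0.05 there was 1 rise and 1 fall, and DESeq2 called 1 rise. Its most abundant members were Fst, an activin antagonist gene at 24.7, 4.64 and 6.66 CPM on day 2 and 24.6, 14.6 and 57.8 CPM on day 3 (log2 fold change 1.55 ± 0.68 (SE), adjusted p = 0.176), and Wnt8a, at 17.99, 33.3 and 71.1 CPM on day 2 and 3.05, 43.0 and 154 CPM on day 3 (log2 fold change -0.18 ± 0.88 (SE), adjusted p = 0.9). Both were higher on day 3 in FA and serum-free medium, whereas in EBs Fst was at like levels and Wnt8a was lower. In the definitive endoderm and node list 2 of 14 rose, Cer1 and the peptide hormone gene Trh, which went from 96.4, 45.4 and 30.7 to 392, 233 and 58.8 CPM (log2 fold change 1.805 ± 0.30 (SE), adjusted p = 0.0217). Gata6, a factor of primitive endoderm, fell from 4.92, 18.1 and 21.8 to 2.57, 6.42 and 10.8 CPM (log2 fold change -1.13 ± 0.18 (SE), adjusted p = 0.0121). Of 21 extraembryonic endoderm genes 5 rose and Gata6 alone fell. The 5 were genes of secreted or absorptive proteins of yolk sac endoderm, namely Afp (4.61), Apoa1 (3.39), Ttr (3.10), Apob (2.64) and Amn (1.94). The markers Gata6, Gata4, Sox17, Sox7, Dab2 and Cubn together went from 253 to 198 CPM in EBs, from 168 to 415 CPM in FA and from 108 to 408 CPM in serum-free medium, so their sum was higher on day 3 in 2 of 3 courses. Their part in the rise of Afp was not tested.

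In the neural ectoderm list 3 of 15 genes rose and 1 fell. Besides Zfp521, these were the intermediate filament gene Nes, from 34.9, 35.4 and 23.9 to 88.1, 78.1 and 74.0 CPM (log2 fold change 1.38 ± 0.13 (SE), adjusted p = 0.00363), and the matrix gene Ncan, from 8.45, 3.57 and 6.22 to 15.0, 14.1 and 21.0 CPM (log2 fold change 1.51 ± 0.25 (SE), adjusted p = 0.0149). Each had all day 3 values above all day 2 values, in EBs as well. The midbrain gene En2 (-0.88) fell. Sox1, which marks neural progenitors, was at 4.28, 38.3 and 48.8 CPM on day 2 and 1.64, 84.8 and 240.0 CPM on day 3, lower on day 3 in EBs and higher elsewhere, and did not pass over all 3 (log2 fold change 0.95 ± 0.81 (SE), adjusted p = 0.447). Among simple epithelial genes in the trophoblast list, Krt18 rose from 21.5, 7.79 and 8.38 to 73.2, 36.1 and 42.7 CPM (log2 fold change 2.11 ± 0.15 (SE), adjusted p = 0.00294), with Krt8 (2.06) and Krt7 (2.22), while the trophoblast factor gene Ascl2 fell (-1.31). The 3 defining trophoblast markers stayed at or below 2.16 CPM in sum. The cadherin and EMT list had 5 of 20 genes rising and none falling by edgeR (2 falls at an unadjusted p below 0.05, and 2 by DESeq2), from the epithelial claudin gene Cldn7, 8.89, 0.773 and 0.317 to 30.6, 5.30 and 2.96 CPM (log2 fold change 2.35 ± 0.30 (SE), adjusted p = 0.00756), to the mesenchymal Cdh11 (1.67) and the matrix protease genes Mmp2 (1.31) and Mmp14 (1.02).

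**Figure D2:**
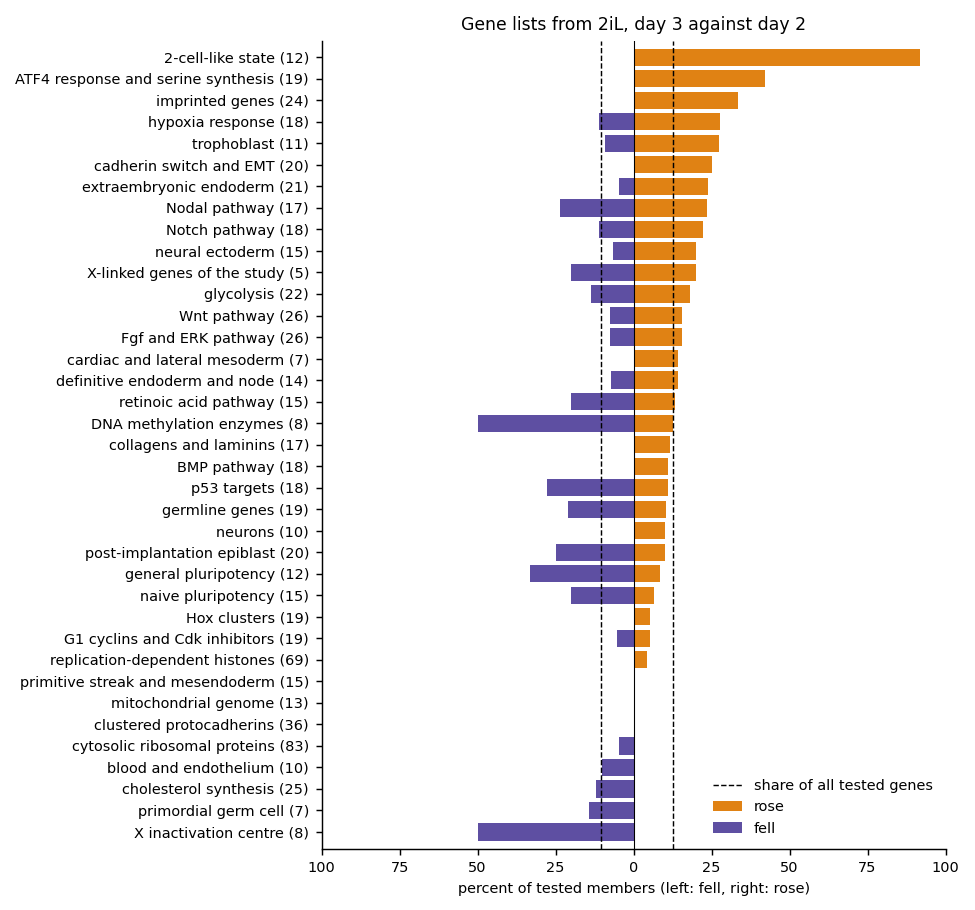
Percent of the tested members of each gene list that rose (right) or fell (left) from day 2 to day 3 from 2iL, with the number tested in brackets. Dashed lines mark the 12.7% and 10.6% of all tested genes that rose and fell. The 2-cell-like list is farthest from them, with 11 of 12 rising.

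At the X inactivation centre 4 of 8 tested genes fell and none rose. Xist was at 15.8, 11.1 and 13.7 CPM on day 2, at 5.59, 4.98 and 8.32 CPM on day 2.5 and at 1.47, 1.02 and 3.82 CPM on day 3 (log2 fold change -2.85 ± 0.38 (SE), adjusted p = 0.0102). Every course showed the decline, and the days did not overlap. Xist had been at 0.304, 0.0654 and 0.152 CPM on day 0 and 2.04, 1.38 and 1.62 CPM on day 1. Its antisense partner Tsix, which opposes Xist, went from 7.10, 4.04 and 4.44 to 3.53, 1.99 and 2.71 CPM (log2 fold change -0.90 ± 0.23 (SE), adjusted p = 0.037). Counting was strand-specific, so the 2 genes can be told apart. The neighbouring gene Tsx fell from 11.2, 6.42 and 5.52 to 2.20, 1.07 and 0.617 CPM (log2 fold change -2.61 ± 0.26 (SE), adjusted p = 0.00467), and Chic1 from 58.2, 66.7 and 50.1 to 37.7, 45.1 and 29.1 CPM (log2 fold change -0.64 ± 0.10 (SE), adjusted p = 0.0118). Neither Ftx, a positive regulator of Xist, nor Rlim, the ubiquitin ligase that activates it, passed, with log2 fold changes of 0.20 ± 0.17 (SE) and 0.08 ± 0.16 (SE). Nap1l2 (-0.09 ± 0.20 (SE)) did not pass, and Jpx, at or below 0.64 CPM in all 6 libraries, was not tested. Without the block or without the FA course Xist missed the threshold (adjusted p = 0.0578 and 0.0673), and Tsix missed it without any 1 of the courses.

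In cells from SL Xist also fell, from 3.21, 2.77 and 3.92 to 1.98, 1.75 and 1.38 CPM (log2 fold change -0.95, adjusted p = 0.0313). The difference between media did not pass (-1.90 ± 0.50 (SE), adjusted p = 0.248), and the day 2 values from SL overlapped those of day 3 from 2iL. Of the study's other X-linked genes, Nexmif, listed as C77370, fell from 202, 95.3 and 79.8 to 100.0, 55.5 and 29.7 CPM (log2 fold change -1.05 ± 0.14 (SE), adjusted p = 0.00814) and Wbp5 rose from 73.1, 49.99 and 55.2 to 110.2, 87.0 and 119.8 CPM (log2 fold change 0.85 ± 0.12 (SE), adjusted p = 0.00964). Huwe1 (-0.11 ± 0.09 (SE)) and Nsdhl (-0.10 ± 0.27 (SE)) did not pass. Over the X chromosome, 59 of 552 tested genes rose (10.69%) and 60 fell (10.87%). For the 511 X-linked genes with a mean of at least 1 CPM, the median log2 change minus that of 12791 autosomal genes was -0.043 in EBs, 0.029 in FA and 0.10 in serum-free medium, a mean of 0.028 ± 0.072 (SD, n = 3). The sign differed between courses (exact sign-flip permutation test over courses, two-sided p = 0.75, where 0.25 is the smallest possible).

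Members of the signalling lists that passed are given by their role. Of all tested genes 12.7% rose and 10.6% fell. The share that rose in the Wnt, Fgf and ERK, and BMP lists was close to that of all genes. In the Nodal pathway 4 of 17 genes rose and 4 fell. On the ligand side, the ligand gene Gdf3 fell from 67.3, 59.4 and 78.8 to 36.9, 36.8 and 32.1 CPM (log2 fold change -0.93 ± 0.14 (SE), adjusted p = 0.0102), together with the co-receptor gene Tdgf1, and the convertase gene Furin, whose product processes Nodal, rose from 10.3, 13.3 and 15.5 to 24.8, 25.9 and 26.5 CPM (log2 fold change 1.02 ± 0.15 (SE), adjusted p = 0.00997). The receptor genes Acvr1b (0.65) and Acvr2b (0.69) and the effector gene Smad3 (0.68) rose. Foxh1, the DNA-binding partner of Smads, changed by -0.66, and the repressor gene Skil by -0.78, both falls. In the Wnt list 4 of 26 rose and 2 fell. The receptor genes Fzd1 (1.65) and Fzd2 (0.72) and the inhibitor genes Nkd2 (1.19) and Sfrp2 (0.70) rose, and Lef1, a nuclear effector, fell from 121, 159.6 and 168 to 42.1, 86.0 and 36.1 CPM (log2 fold change -1.52 ± 0.27 (SE), adjusted p = 0.0236), as did Notum, which inactivates Wnt ligands (-1.51).

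For Fgf and ERK signalling, 4 of 26 genes rose and 2 fell, and the falls were the ligand gene Fgf4 and the ERK target gene Etv4. The receptor gene Fgfr1 (0.48), the feedback inhibitor genes Spry1 and Il17rd and the immediate early gene Fos (1.98) rose. Il17rd was at 72.0, 90.8 and 81.5 CPM on day 2 and 111, 403 and 178 CPM on day 3 (log2 fold change 1.31 ± 0.31 (SE), adjusted p = 0.045), with FA far above the rest. In the BMP list 2 of 18 rose and none fell. They were the ligand gene Bmp7, from 0.803, 0.654 and 1.33 to 2.80, 8.65 and 12.6 CPM (log2 fold change 2.88 ± 0.41 (SE), adjusted p = 0.0101), and the effector gene Smad1 (0.73). In the Notch list 4 of 18 rose and 2 fell. No member passed without the FA course, 1 rose without the serum-free course or the block, and 9 rose and 2 fell without the EB course. The target genes Hey1, Nrarp and Hes1 were among the rises, Hey1 going from 1.19, 0.832 and 0.444 to 4.69, 5.59 and 4.81 CPM (log2 fold change 2.62 ± 0.35 (SE), adjusted p = 0.00877), Nrarp changing by 1.92 and Hes1 by 1.73. Of the ligand genes Jag2 rose (0.66) and Dll1 fell (-0.84), and the Notch-modifying enzyme gene Rfng fell (-0.84). In the retinoic acid list 2 of 15 rose, the carrier gene Rbp4 (2.14) and the receptor gene Rxra (1.09), and 3 fell, the synthesis enzyme gene Aldh1a2 (-1.71) and the receptor genes Rxrg (-1.39) and Rara (-0.59).

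The largest share of rises outside the 2-cell-like list was in a list of ATF4 targets and serine synthesis genes, of which 8 of 19 rose and none fell, against 12.7% of all genes. ATF4 is the transcription factor through which shortage of amino acids and stress of the endoplasmic reticulum raise genes of amino acid supply and redox defence. It binds, with a C/EBP partner, an element written TGATGNAA. Of the 8 risen genes, 4 held that element upstream of the start site within the RefSeq promoter window of 300 bases (GRCm38.p6). These stretches are shown because their genes carry the list's change, and they are printed 5′ to 3′ on the gene's strand with the element or its reverse complement in capitals.
Atf3, chr1:191183406-191183473, minus strand: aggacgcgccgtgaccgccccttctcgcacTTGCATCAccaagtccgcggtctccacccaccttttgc
Chac1, chr2:119351019-119351086, plus strand: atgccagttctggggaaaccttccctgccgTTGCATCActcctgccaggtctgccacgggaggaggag
Slc7a11, chr3:50443623-50443709, minus strand: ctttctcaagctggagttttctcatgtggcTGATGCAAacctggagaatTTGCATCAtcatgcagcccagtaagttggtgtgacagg
Nupr1, chr7:126625543-126625610, minus strand: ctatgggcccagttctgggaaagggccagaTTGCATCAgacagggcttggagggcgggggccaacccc

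On both strands together, the element was present for 6 of the 16 list genes that have a window (37.5%), against 1219 of 27025 genes with a window (4.51%) and 3.97% of all windows. The list was made of known targets, so an excess is part of its definition. Among the 7 genes that rose and have a window, 5 held it (Atf3, Chac1, Slc7a11, Nupr1 and Trib3), and among the 9 that did not pass, 1 did (Asns). Slc7a11 held 2 copies. A match describes the letters and is no evidence of binding.

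Atf3, itself an ATF4-induced repressor gene, was at 0.363, 0.832 and 1.02 CPM on day 2 and 1.44, 10.3 and 7.22 CPM on day 3 (log2 fold change 2.85 ± 0.37 (SE), adjusted p = 0.00813). Ddit3, which encodes CHOP, went from 1.71, 2.32 and 2.16 to 8.92, 10.8 and 12.0 CPM (log2 fold change 2.38 ± 0.20 (SE), adjusted p = 0.00326), and Chac1, which degrades glutathione, from 2.41, 9.21 and 9.96 to 8.81, 68.5 and 32.8 CPM (log2 fold change 2.19 ± 0.26 (SE), adjusted p = 0.00855). On day 3 Chac1 was highest in FA and lowest in EBs, whereas the 3 courses gave like values for Ddit3. The mitochondrial folate enzyme gene Aldh1l2 (2.35), the stress factor gene Nupr1 (1.73), the cystine transporter gene Slc7a11 (1.67), the kinase-like Trib3 (1.46) and the mTORC1 inhibitor gene Sesn2 (0.56) rose as well. Atf4 itself, at 185, 206 and 214 CPM on day 2 and 188, 359.5 and 239 CPM on day 3, did not pass (log2 fold change 0.35 ± 0.16 (SE), adjusted p = 0.168), nor did the serine synthesis genes Phgdh (0.77 ± 0.20 (SE)), Psat1 (0.59 ± 0.20 (SE)) and Psph (0.48 ± 0.20 (SE)). All 19 fitted values were above 0, with a median of 0.70 against 0.02 for all genes. By course the median of the list was 0.25 in EBs, 1.30 in FA and 0.60 in serum-free medium. From SL 2 of the 19 rose, and no member differed between media by edgeR, while DESeq2 called 2 of the 19 there. For the change from 2iL DESeq2 called 12 rises. Without the FA course 2 passed, without the serum-free course 3 and without the block 1.

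Of 24 imprinted genes 8 rose and none fell by edgeR, with 2 falls at an unadjusted p below 0.05 and 1 by DESeq2. Gnas, which encodes the stimulatory G protein, went from 81.4, 67.2 and 72.0 to 182, 172 and 241 CPM (log2 fold change 1.44 ± 0.13 (SE), adjusted p = 0.00362), highest in serum-free medium on day 3. Sgce went from 2.62, 6.83 and 9.08 to 5.79, 20.9 and 36.0 CPM (log2 fold change 1.61 ± 0.20 (SE), adjusted p = 0.00703) and the growth factor gene Igf2 from 3.42, 2.73 and 21.6 to 4.94, 8.89 and 113 CPM (log2 fold change 1.60 ± 0.39 (SE), adjusted p = 0.0479). For Igf2 the serum-free course was highest on both days. H19, the non-coding neighbour of Igf2, rose from 40.02, 119 and 208 to 67.2, 216 and 611 CPM (log2 fold change 1.07 ± 0.17 (SE), adjusted p = 0.0158), and the growth inhibitor gene Grb10 (1.57), Ndn (1.17) and the non-coding RNAs Rian (0.48) and Meg3 (0.36) completed the list. Mest, with 292, 321 and 448 CPM on day 2 and 281, 2042 and 2738 CPM on day 3, did not pass (log2 fold change 1.81 ± 0.75 (SE), adjusted p = 0.172). The 8 came to 3 without the serum-free course and to 1 without the FA course or without the block.

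Of 19 germline genes 2 rose and 4 fell, against 12.7% and 10.6% of all genes. Without the EB course 8 rose and 4 fell, without the FA course 0 and 2, without the serum-free course 1 and 2, and without the block 0 and 1. Rpl10l, a germline copy of a ribosomal protein gene, fell from 35.3, 55.3 and 75.7 to 8.78, 13.9 and 12.3 CPM (log2 fold change -2.19 ± 0.16 (SE), adjusted p = 0.00294) and the meiotic gene Hormad1 from 32.2, 45.2 and 30.3 to 5.37, 16.9 and 8.63 CPM (log2 fold change -1.92 ± 0.24 (SE), adjusted p = 0.00894), both without overlap between days. Tex19.1 (-1.40) and Dazl (-0.63) fell, and the meiotic axis gene Sycp3 (1.502) and the piRNA gene Tdrd1 (1.15) rose. Endothelial Pecam1, which ESCs also express, fell from 28.9, 35.0 and 42.8 to 11.6, 5.49 and 8.57 CPM (log2 fold change -2.06 ± 0.29 (SE), adjusted p = 0.013). Of 83 cytosolic ribosomal protein genes 4 fell and none rose, Rpl10l and its like Rpl39l (-1.797) being the largest, none of them rising at an unadjusted p below 0.05 either. Of 13 mitochondrial genes none passed by edgeR, also not at an unadjusted p below 0.05, and DESeq2 called 1 rise. Of 36 clustered protocadherin genes none passed with either tool, although 14 were higher on day 3 at an unadjusted p below 0.05 with both.

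In metabolism and the cell cycle, hypoxia response genes rose in 5 and fell in 2 of 18 cases. Vegfa, the angiogenic factor gene, went from 3.60, 10.7 and 11.5 to 10.2, 61.7 and 38.2 CPM (log2 fold change 1.94 ± 0.22 (SE), adjusted p = 0.00664), and Ndrg1 from 6.09, 2.32 and 3.05 to 12.7, 7.87 and 7.65 CPM (log2 fold change 1.38 ± 0.22 (SE), adjusted p = 0.0115). Ndrg1 in EBs was higher at day 2.5, at 20.1 CPM. Cholesterol synthesis genes fell in 3 of 25 cases, among them that of the squalene epoxidase gene Sqle (-0.58), and none rose by edgeR. DESeq2 called 8 falls and no rise. Of 18 p53 targets 2 rose and 5 fell, Trp53 itself going from 243, 208 and 265 to 179.8, 143 and 141 CPM (log2 fold change -0.61 ± 0.12 (SE), adjusted p = 0.02). The Cdk inhibitor gene Cdkn1b rose from 25.1, 15.6 and 17.4 to 58.5, 28.9 and 35.6 CPM (log2 fold change 1.07 ± 0.12 (SE), adjusted p = 0.00609) and the cyclin gene Ccne1 fell from 221, 207 and 167 to 116, 113 and 94.5 CPM (log2 fold change -0.86 ± 0.09 (SE), adjusted p = 0.00465), the members of 19 G1 regulators that passed by edgeR. DESeq2 called 2 rises and 4 falls among them. Of 69 replication-dependent histone genes 3 rose. In glycolysis 4 of 22 genes rose, among them the glucose transporter genes Slc2a1 (0.85) and Slc2a3, and 3 fell, among them the hexokinase gene Hk2 (-0.68).

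The remaining lists had few calls. Of 7 primordial germ cell genes Itgb3 fell (-1.04), and of 10 blood and endothelial genes Pecam1 alone fell. Of 7 genes of cardiac and lateral mesoderm Tbx20 rose (2.02), and of 10 neuronal genes Map2 rose (1.52). Of 17 collagens and laminins 2 rose, Col1a1 (1.77) and Lamb2 (0.95). These calls are edgeR's, and DESeq2 made 0, 1, 1, 3 and 6 calls in the same order of lists.

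Cells from SL allowed the same interval to be compared. From SL 1796 of 14252 genes rose (12.6%) and 1685 fell (11.8%). Of 1800 genes that rose from 2iL and were tested from SL, 1712 had the same sign (95.11%) and 1108 rose (61.56%, or 63.39% of the SL rises tested from 2iL). Of 1433 that fell, 1412 had the same sign (98.53%) and 949 fell (66.22%, or 56.86% of the SL falls). The 2 comparisons share no library. No fallen gene rose from SL, but 51 genes that rose from 2iL fell from SL.

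The test of the difference between media passed for 68 of 14969 genes (0.454%), 63 with a higher and 5 with a lower change from 2iL. It passed for 49 of the 51 genes of opposite direction. Those were chosen for opposite changes in the same libraries, so this count follows largely from the choice. At a tolerance of 10% per library the 63 form 53 distinct profiles. Genes with like profiles may share reads, which was not tested, and each of them is uncertain. Of these 63 genes, 58 rose from 2iL and 57 had a lower mean on day 3 than on day 2 from SL. All 63 had a lower mean from 2iL than from SL on both days.

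**Figure D3:**
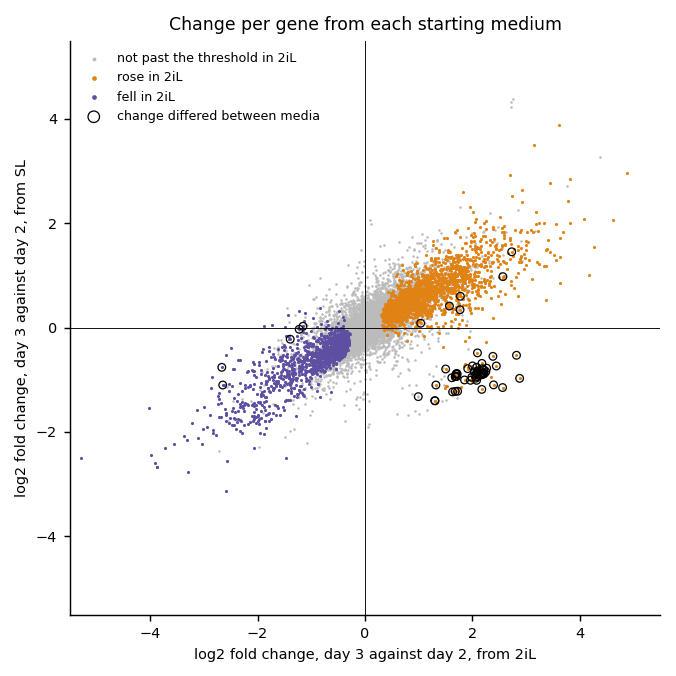
Log2 fold change of day 3 against day 2 for every gene tested from both media, from 2iL on the x axis and from SL on the y axis. Orange and violet points rose and fell from 2iL, and black rings mark genes whose change differed between media. Most rings lie in the lower right, where genes rose from 2iL and fell from SL.

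Of the genes that rose from 2iL and fell from SL, 8 belong to the list of the 2-cell-like programme, a set of genes of the 2-cell embryo that rare cells of an ESC culture switch on for a short time. Zscan4 proteins guard telomeres in that state, and the Usp17l genes encode deubiquitinases. Of 20 listed genes 18 were counted and 12 passed the filter on low counts, and 11 of the 12 rose from 2iL, with none falling. Several of these are related Usp17l or Zscan4 genes, which may share reads, so the 11 need not be separate signals. At the tolerance of 10% per library the 12 formed 12 distinct profiles. All 18 had a fitted rise without the filter, and 13 of them passed. The list came from knowledge of the state, but earlier results of these libraries were known when it was taken up. Gm4340, which shared its counts within 10% with 5 other genes (Gm8764, Gm21293, Gm20765, Gm21312 and Gm21304), was at 52.3, 19.7 and 23.9 CPM on day 2 and 306, 93.2 and 82.8 CPM on day 3 (log2 fold change 2.22 ± 0.16 (SE), adjusted p = 0.00294). All day 3 values lay above all day 2 values, and EBs were highest on both days.

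From SL the same gene was at 112, 1020.0 and 1041 CPM on day 2 and at 49.1, 549.6 and 717 CPM on day 3 (log2 fold change -0.88, adjusted p = 0.00361), a fall in every course from a higher level. The difference between media was 3.10 ± 0.23 (SE), adjusted p = 0.00357. Zscan4c, the marker of the state, went from 32.1, 13.2 and 18.9 to 142, 48.2 and 41.0 CPM from 2iL (log2 fold change 1.74 ± 0.22 (SE), adjusted p = 0.00958), and its difference between media did not pass (adjusted p = 0.0676). Usp17le went from 2.07, 0.535 and 0.762 to 10.1, 3.35 and 2.22 CPM (log2 fold change 2.19 ± 0.31 (SE), adjusted p = 0.00956, difference between media 3.12 ± 0.34 (SE), adjusted p = 0.00975). Arg2, the mitochondrial arginase gene, went from 0.570, 0.238 and 0.381 to 2.06, 1.65 and 1.36 CPM (log2 fold change 2.10 ± 0.38 (SE), adjusted p = 0.0173, difference 2.96 ± 0.45 (SE), adjusted p = 0.0343). For all of these genes, day 3 values from 2iL lay wholly above those of day 2.

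Of the 18 list members tested from SL none rose and 10 fell, and 8 of 18 differed between media, all with the higher change from 2iL. Duxf3, of the Dux family that activates the programme, did not pass from 2iL, with 0.933, 0.297 and 0.635 CPM on day 2 and 1.24, 0.680 and 0.925 CPM on day 3 (log2 fold change 0.66 ± 0.37 (SE), adjusted p = 0.234), and 6 members of low count, among them Zfp352 with at most 3.28 CPM, were not tested. In EBs Gm4340 had reached 272 CPM by day 2.5, whereas FA and serum-free cells were at 44.4 and 51.8 CPM. It had been at 32.9, 6.54 and 14.22 CPM on day 0, and by day 7 it was at 1.69, 2.48 and 24.2 CPM. The count of 11 came to 2 of 13 without the FA course, to 0 without the block and to 1 of 16 in a fit of all 23 libraries from 2iL, while the median log2 change of the list stayed between 1.84 and 2.19 in these and the other fits run. The 8 that differed between media came to 0 without the FA course, 4 without the serum-free course and 8 without the EB course.

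**Figure D4:**
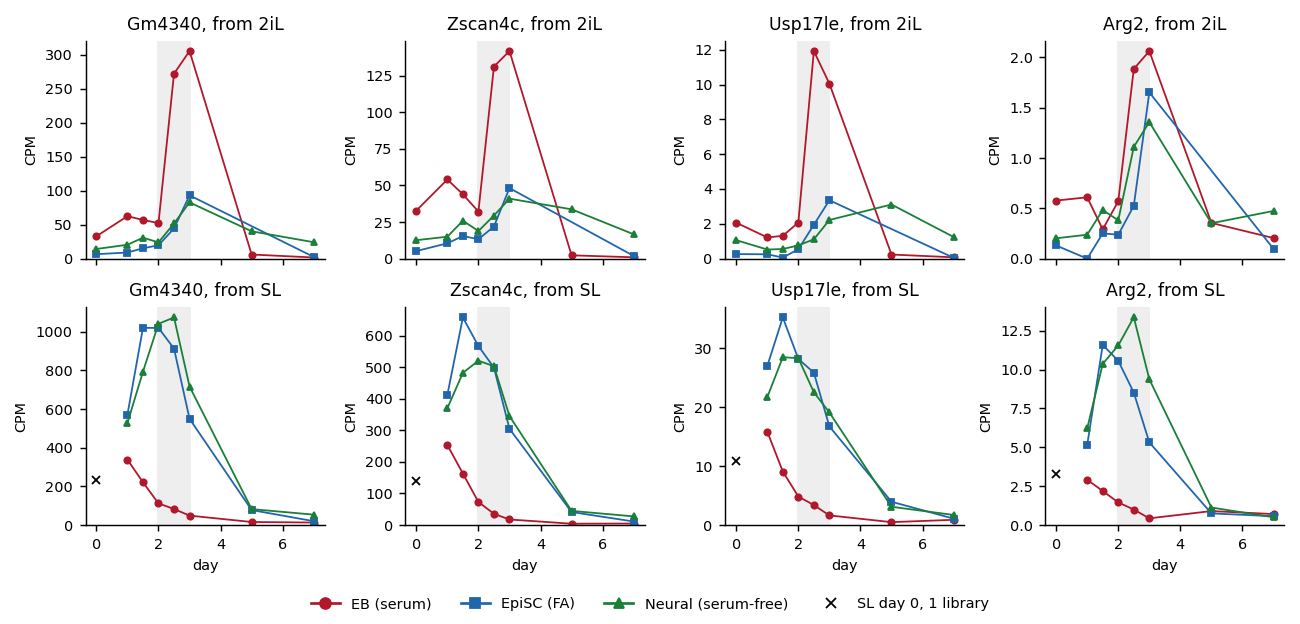
CPM of 4 genes of the 2-cell-like list by day, from 2iL (upper row) and from SL (lower row), with 1 line per course and the interval from day 2 to day 3 shaded. Vertical scales differ between panels. From 2iL every line is higher at the end of the shaded interval than at its start. Within it, Usp17le in EBs went from 11.92 CPM at day 2.5 to 10.05 CPM on day 3. From SL the mean of the lines goes down from a higher level.

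The 5 genes with a lower change from 2iL all fell from 2iL. Aire, the regulator of tissue antigens in thymus, went from 37.7, 28.3 and 16.1 to 4.77, 5.2 and 2.65 CPM from 2iL and from 14.1, 5.35 and 6.37 to 10.8, 2.79 and 3.004 CPM from SL (difference -1.90 ± 0.26 (SE), adjusted p = 0.0186). The cilium gene Hydin differed by -1.55, 1200014J11Rik by -1.20, the centrosome gene Sfi1 by -1.18 and the folate receptor gene Folr1 by -1.17. On day 2 Aire was wholly higher from 2iL than from SL, and on day 3 the media overlapped. The largest differences on the other side were those of Gm5286 (3.89), Gm12794 (3.71), Gm12800 (3.53), Gm2046 (3.36) and Gm10424 (3.17), predicted genes outside the list. DESeq2 found 172 genes where edgeR found 68, and edgeR found none without the FA course (578 at an unadjusted p below 0.05) or without the block (347).

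The courses were compared with the 2 starting media as replicates, over 15347 genes. The change in EBs was higher than in the other courses for 238 genes (1.55%) and lower for 478 (3.11%). Gfra1, a receptor for the growth factor GDNF, was at 8.09, 21.5 and 29.1 CPM on day 2 and 6.78, 2.24 and 2.40 CPM on day 3 from 2iL, the drop being smallest in EBs (difference 2.95 ± 0.22 (SE), adjusted p = 0.002). The water channel gene Aqp3 went from 1.24, 1.07 and 3.05 to 11.1, 1.55 and 0.802 CPM (difference 2.76 ± 0.49 (SE), adjusted p = 0.026), and the EB library of day 3 was the highest. Robo4, 2.25, 2610528J11Rik, 1.91, and Tle6, 1.88, followed on that side. On the lower side were Sparcl1 (-6.02), the somite gene Meox1 (-4.44) and the axon guidance receptor gene Robo2 (-4.25), each at or below 0.311 CPM in EBs on day 3. Sox1 was also on the lower side (-2.76 ± 0.22 (SE), adjusted p = 0.002).

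The 2 genes Gm21738 and Gm10715 also passed on the lower side, but 1 library decided them. Gm21738 was at 1.35, 0 and 0 CPM on day 2 and 1.84, 0.0486 and 232 CPM on day 3, and the serum-free day 3 library alone held it at a high level. Gm10715 was at 1.58, 0.0972 and 73.8 CPM on day 3. Their fitted differences rest on libraries at or near 0 and are no measure of size. Without the serum-free course, no gene passed between EB and FA by edgeR, although 1943 had an unadjusted p below 0.05. Over all courses DESeq2 called 412 genes where edgeR called 716.

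Between FA and serum-free medium 116 genes differed (0.756%), 62 with the higher change in FA and 54 with the lower. On the serum-free side, Egr2, which patterns the rhombomeres of the hindbrain, was at 0.285, 0.238 and 0.0635 CPM on day 2 and 0.424, 0.340 and 14.9 CPM on day 3 from 2iL and at 0.145, 0.259 and 20.2 CPM on day 3 from SL (difference -6.40 ± 0.97 (SE), adjusted p = 0.0273). The signalling gene Fgf3 differed by -3.11 and the adhesion gene Nrcam by -2.94. Hoxa2, also a hindbrain gene, rose over the courses of 2iL from 0, 1.43 and 2.16 to 0, 7.68 and 17.8 CPM (log2 fold change 2.74 ± 0.33 (SE), adjusted p = 0.00944), the 1 of 19 Hox genes tested that passed by edgeR, with no read in EBs on either day. Neuron markers (Dcx, Stmn2, Tubb3) summed to 95.1 CPM in serum-free medium on day 2 and 121 CPM on day 3.

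On the FA side, the ligand gene Nodal was at 65.9, 43.9 and 23.1 CPM on day 2 and 27.8, 61.1 and 4.63 CPM on day 3 from 2iL, higher on day 3 in FA and lower elsewhere (difference 2.16 ± 0.28 (SE), adjusted p = 0.0317). From SL its values went from 38.8, 48.0 and 22.9 to 17.8, 43.9 and 7.03 CPM. Slc7a11, one of the ATF4 targets above, went from 3.19, 2.32 and 2.41 to 7.17, 17.0 and 4.63 CPM (difference 2.37 ± 0.32 (SE), adjusted p = 0.0192), and Nupr1 from 1.79, 3.98 and 6.35 to 3.76, 29.8 and 14.4 CPM (difference 1.76 ± 0.27 (SE), adjusted p = 0.0291). Both were highest in FA on day 3 from either medium. Of the 19 members of that list 5 differed between FA and serum-free medium. The scaffold gene Pdzk1 (1.77) and the receptor gene Tlr2 (1.76) were the other 2 of the 5 largest. The 7SL share, higher in the serum-free libraries on both days, moved with this contrast between courses, and its part was not tested.

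**Figure D5:**
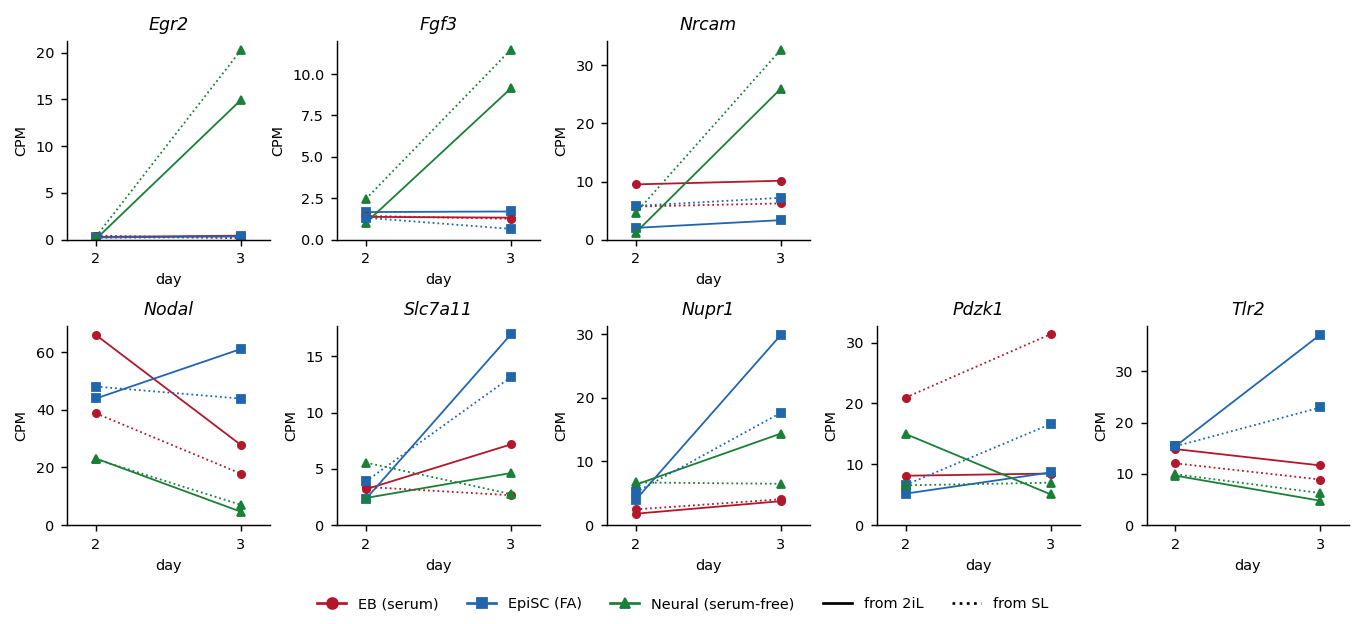
CPM on days 2 and 3 of 3 of the genes with the largest lower change in FA than in serum-free medium (upper row) and the 5 with the largest higher change (lower row), by course, with solid lines from 2iL and dotted lines from SL. The upper genes climb in serum-free medium from both starting media, and the lower genes end higher in FA than in serum-free medium.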

How the data were processed

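RNA-seq was made from rRNA-depleted total RNA with a directional library kit. The authors trimmed reads with TrimGalore, aligned them to GRCm38/mm10 with TopHat2 and counted them per gene by strand with featureCounts, and the deposited values are raw counts per gene (versions not given in the sources used here). Of the 35372 genes 97.8% were matched by Ensembl gene ID to the annotation.

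The counts were tested with edgeR 4.0.16 in R 4.3.3 (TMM, filterByExpr, robust quasi-likelihood F test, Benjamini-Hochberg threshold 0.05) for day 3 against day 2 from 2iL, with the course as a block because day 2 and day 3 of a course share their medium. The deviations of same-course libraries from their day means correlated at 0.66 (EB), 0.57 (FA) and 0.53 (serum-free). The same fit was made from SL. Differences between starting media, and between courses with both media as replicates, were contrasts of 12-library models. Each medium, course and day has at most 1 library. For the days and for the starting media, p-values therefore measure the spread between the 3 courses. Spread between culture media and spread between cultures cannot be told apart there. For the comparisons of courses, they measure how far the difference varies between the 2 starting media. CPM are a gene's counts relative to the library total after TMM scaling. They therefore differ from the gene's plain share of all counts in its library. TMM entered the tests as well. X-linked and autosomal changes were compared as log2(CPM + 0.1) per course. The script was tested on simulated data.

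Members, lists and named genes were chosen with earlier results of these data known. Named genes were the 10 largest changes each way with a mean of at least 5 CPM, up to 6 members of main lists and 2 of other lists, the 5 largest differences each way, and fixed markers. Every other gene named, among them the abundant transcripts, Pou5f1, Gnas, Chac1, Krt8, the serine synthesis genes and further list members, was chosen after its values were seen. Alternatives were DESeq2 1.42.0, its size factors, no filter, no block, leaving out each course, and other sets of libraries. Genes with near-identical counts are uncertain, since the handling of reads that map to several genes could not be checked. Some genes that passed or were listed are not reported here. All 45 libraries were read, and those outside these days served for timing or alternatives.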

Additional observations from a re-analysis of the deposited data

Results flagged for a closer look

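Results listed here are those whose change passed a test of a difference between starting media or courses, with an adjusted p below 0.05. Between cells from 2iL and from SL, the change from day 2 to day 3 differed for 68 genes in edgeR's test of the difference itself. Of the named genes, the log2 change was higher from 2iL for Gm5286 (3.89), Gm12794 (3.71), Gm12800 (3.53), Gm2046 (3.36), Gm10424 (3.17), Usp17lb (3.14), Usp17le (3.12), Usp17la (3.11), Gm4340 (3.10), Usp17ld (3.07), Arg2 (2.96), Zscan4b (2.88) and Usp17lc (2.76). It was lower from 2iL for Aire (-1.90), Hydin (-1.55), 1200014J11Rik (-1.20), Sfi1 (-1.18) and Folr1 (-1.17). Genes with near-identical counts may share reads, which was not tested, and are uncertain.

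Between EBs and the other courses it differed for 716 genes. Of the named genes, the log2 change was higher in EBs for Gfra1 (2.95), Aqp3 (2.76), Robo4 (2.25), 2610528J11Rik (1.91), Tle6 (1.88), Pecam1 (1.01), Etv4 (0.62), Dnmt3a (0.51) and Skil (0.45). It was lower in EBs for Gm21738 (-17.50), Sparcl1 (-6.02), Gm10715 (-5.14), Meox1 (-4.44), Robo2 (-4.25), Egr2 (-3.90), Megf10 (-3.32), Fst (-2.08), Nrcam (-1.90), Hkdc1 (-1.44), Hormad1 (-1.02), Mmp2 (-1.01), Cldn7 (-1.005), Il17rd (-0.92), Nsdhl (-0.89) and Fgfr1 (-0.39). Sox1 was lower in EBs as well, with its value given above. Gm21738 and Gm10715 rest on 1 serum-free library from 2iL, and their values are no measure of size.

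Between FA and serum-free medium it differed for 116 genes. Of the named genes, the log2 change was higher in FA for Slc7a11 (2.37), Nodal (2.16), Pdzk1 (1.77), Nupr1 (1.76), Tlr2 (1.76), Lef1 (0.96), Etv4 (0.94), Nanog (0.91) and Dnmt3a (0.59). It was lower in FA for Egr2 (-6.40), Fgf3 (-3.11), Nrcam (-2.94), Zfp521 (-2.38) and Fst (-1.35). No library was tested as standing apart, since each group held 3.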

How the results depend on the processing

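The 3308 genes changed from 2iL became 225 with no replicate block, 5663 with the 9 libraries of days 2, 2.5 and 3, and 571 at an adjusted p below 0.01, and between 230 (without the FA course) and 5000 (without the EB course) when 1 course was left out. DESeq2, its size factors, no filter and all 23 libraries gave 3657, 3376, 3702 and 3631. From SL the 3481 genes became 38 without the block, 2142 with all SL libraries from day 1 on, and 1506 to 3121 with 1 course left out. The 68 genes that differed between media became 172 with DESeq2 and 0 without the block, and 0 (without FA) to 80 (without EB) with 1 course left out. The 716 genes that differed in EBs became 412 with DESeq2, and 0 (without serum-free) to 1107 (without FA). The 116 genes that differed between FA and serum-free medium became 214 with no filter and 534 without EBs. The X-linked difference was -0.049 with means in place of medians and -0.0073 to 0.064 with 1 course left out. Wnt8a ran from -1.01 without the serum-free course to 0.75 without EBs. The causes were not tested. Of 1214 values of called named genes under alternatives, 848 stayed on the same side of the threshold and 0 reversed.

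With 1 library per medium, course and day, the error in the comparison of days is the spread between 3 courses. A gene whose change differs between courses, such as Sox1 or Mest, has a large error there. No course can be checked against a second culture. Depth limits genes with few reads: 12 of the 18 counted genes of the 2-cell-like list were tested, and libraries at or near 0 give fitted values that are no measure of size.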
